A study of Homo sapiens with 32 samples.

Results

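The BCL2 family transcripts BCL2, BCL2L1, MCL1, BAX, BAK1, BID, BAD, BBC3, PMAIP1 and BCL2L11 were followed in SK-N-BE(2) cells treated with cannabidiol (CBD). They were chosen by gene symbol, and all 10 are present among the 22610 gene entries of the FPKM table (fragments mapped to a gene, scaled for transcript length and for the number of mapped fragments). SK-N-BE(2) is a single human neuroblastoma line with amplified MYCN. Cells received 20 μM CBD dissolved in ethanol, or the vehicle alone at 0.1% ethanol, and were harvested after 3, 6, 12 or 24 h, so that each of the 8 groups holds 4 of the 32 samples. Every group therefore shares the line and the solvent, and the labels state the ethanol content for vehicle only. RNA came from wells of 6-well plates. The study's methods describe 4 treatments per group, and whether these came from cultures grown separately or on different days is not stated, so the p-values below measure the spread between these samples, which may be technical.

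The BCL2 family decides whether the outer membrane of the mitochondrion stays intact. BAX and BAK1 are the effectors that form pores in that membrane and let cytochrome c out. BCL2, BCL2L1 (BCL-XL) and MCL1 hold the effectors in check, and the BH3-only proteins BID, BAD, BBC3 (PUMA), PMAIP1 (NOXA) and BCL2L11 (BIM) sense stress and either neutralize these guardians or activate the effectors. Partners are selective. PMAIP1 binds mainly MCL1, and BAD binds BCL2 and BCL2L1, whereas BBC3 and BCL2L11 bind all of the guardians. Much of the control lies in protein turnover, cleavage and phosphorylation, which transcript levels do not show.

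In the 24 h samples, CBD-treated cells held more BBC3 and BCL2 mRNA and less MCL1, BCL2L1 and BID mRNA than vehicle-treated cells. The largest difference was that of BBC3, with a mean of 2.57 ± 0.56 FPKM (SD, n = 4) against 1.22 ± 0.17 FPKM, and the other changes were small, between a fall of 15.2% for MCL1 and a rise of 10.2% for BCL2 in mean FPKM. At the earlier times, PMAIP1 at 6 h was the only member whose difference passed the test. The effectors BAX and BAK1 did not pass it at any of the 4 times. Members that passed were 5 of 10 at 24 h and 1 of 10 at 6 h, against 42.1% and 10.2% of all genes tested. In RNA pooled over a culture, a change in every cell and a change in some of the cells cannot be told apart.

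The processed files give no read count per sample, and the study's methods give a median per lane only. Relative depth, estimated from the step between low FPKM values of 1414 genes, ran from 0.786 to 1.21 across the 32 samples. Its mean was lower in CBD-treated than in vehicle-treated samples at each time, and the differences did not pass an exact two-sided permutation test (p = 0.143, 0.171, 0.143 and 0.457 at 3, 6, 12 and 24 h). Neuroblastoma markers were high in every sample, with MYCN between 1421 and 2452 FPKM and HAND2 between 454 and 526 FPKM. Of 15 markers of fibroblasts, leukocytes, epithelium and endothelium, 11 stayed under 1 FPKM in every sample, and the exceptions were LUM (44.1 to 67.8 FPKM), DCN (4.92 to 8.31), EPCAM (1.57 to 4.61) and COL1A1 (1.02 to 2.43).

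On hg19 (GRCh37, GENCODE version 44), the genes of the guardians are on the minus strand, MCL1 at chr1:150533371-150552214, BCL2L1 at chr20:30252255-30311792 and BCL2 at chr18:60790579-60987361. The effector genes are BAX at chr19:49458072-49465055 on the plus strand and BAK1 at chr6:33540324-33548070 on the minus strand. Of the BH3-only genes, PMAIP1 (chr18:57567228-57571537) and BCL2L11 (chr2:111876955-111926021) are on the plus strand, and BBC3 (chr19:47724079-47736023), BID (chr22:18216904-18257536) and BAD (chr11:64037302-64052176) are on the minus strand. All values are per gene and do not separate isoforms, such as the long and short forms of MCL1 and BCL2L1 that act in opposite ways. In the authors' own comparisons, MCL1 spans chr1:150521845-150552214 and BAD chr11:64037300-64056972, longer than the genes as annotated above. Whether FPKM were taken over these spans is not stated. Reads of 50 bases can also be shared. Of the distinct 50-base words in the exons of BAK1, 12.5% occur in the same orientation in other genes, mostly in its pseudogene BAK1P1, so its level is uncertain. For BCL2L1, 35.6% of words occur in opposite-strand genes, mostly ABALON, and for BAD 16.2% do, mostly in GPR137; the study's methods describe the run as first stranded, and these reads can be told apart only if the counting used strand, for which no setting is given. The shared words of MCL1 were 4.45% and those of BCL2L11 9.58%, and each of the other 5 genes had at most 1.02%.

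Promoter windows are shown for the BH3-only genes called higher with CBD, BBC3 at 24 h and PMAIP1 at 6 h, and for BAX, the effector with the higher level. Each runs from 250 bases before to 50 bases after the start given by RefSeq on GRCh38.p14, 5′ to 3′ on the gene's own strand. Capitals mark the E-box CACGTG, which reads the same on both strands and is the core sequence recognized by MYC family proteins, and the cyclic AMP response element core TGACGT on either strand (ACGTCA on the other). The BBC3 window is at chr19:47232618-47232917 on the minus strand, that of PMAIP1 at chr18:59899746-59900045 on the plus strand and that of BAX at chr19:48954625-48954924 on the plus strand.
BBC3: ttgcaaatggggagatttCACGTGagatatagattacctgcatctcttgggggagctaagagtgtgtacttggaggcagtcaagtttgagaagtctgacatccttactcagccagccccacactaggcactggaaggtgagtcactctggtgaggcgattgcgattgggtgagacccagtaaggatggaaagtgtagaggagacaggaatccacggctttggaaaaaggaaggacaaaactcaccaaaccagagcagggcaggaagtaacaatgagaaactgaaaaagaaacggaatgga
PMAIP1: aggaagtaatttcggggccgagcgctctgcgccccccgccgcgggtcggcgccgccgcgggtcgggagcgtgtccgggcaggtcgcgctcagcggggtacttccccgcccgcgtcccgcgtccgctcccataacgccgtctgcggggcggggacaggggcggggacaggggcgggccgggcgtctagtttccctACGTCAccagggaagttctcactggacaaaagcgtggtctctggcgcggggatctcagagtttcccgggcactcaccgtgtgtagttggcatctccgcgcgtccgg
BAX: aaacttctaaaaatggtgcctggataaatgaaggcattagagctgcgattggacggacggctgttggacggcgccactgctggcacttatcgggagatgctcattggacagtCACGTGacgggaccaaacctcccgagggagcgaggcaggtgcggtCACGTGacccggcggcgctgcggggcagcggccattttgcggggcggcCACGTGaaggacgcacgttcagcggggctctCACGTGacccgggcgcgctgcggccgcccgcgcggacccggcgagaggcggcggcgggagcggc

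The BAX window holds 4 E-boxes, which begin 138, 93, 45 and 14 bases before the start, and the BBC3 window holds 1, beginning 232 bases before it. PMAIP1 has 1 response element core beginning 56 bases before the start and 4 copies of the GC box GGGCGG, which is left in lower case above. Among the 35093 RefSeq windows of the same length, 7.26% hold an E-box, 7.98% the response element core and 44.9% a GC box on either strand. A further motif, TGATGNAA, the composite element bound by ATF4 and CEBP proteins, occurs in 3.62% of windows and in none of the windows of the 9 members that have an entry. These matches describe the letters in the windows and nothing else.

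Averaged over the 32 samples, the order of the members' FPKM levels was MCL1 (78.2), BAX (52.1), BID (26.0), BAD (15.2), PMAIP1 (13.1), BCL2L1 (11.8), BCL2L11 (8.90), BAK1 (6.77), BCL2 (5.35) and BBC3 (1.00). MCL1 was thus the most abundant guardian transcript and supplied between 78.3% and 84.1% of the summed FPKM of MCL1, BCL2L1 and BCL2 in any sample. BAX supplied between 86.4% and 90.8% of the summed FPKM of the effectors. Over all samples, the ranges of neighbors in this order overlapped except between BAX and BID and between BCL2 and BBC3. BBC3 stood near the limit of the test. The test was run on the 12621 genes with a mean of at least 1 FPKM over all samples, all 10 members passed, and only 1 of the genes tested had a lower mean than BBC3 (1.0003 FPKM). Without the 24 h CBD group its mean was 0.776 FPKM, so BBC3 was tested only because of the group in which it was high. Counts and p-values that include it carry that selection, and for its own tests the adjusted p over all 22610 entries with no filter is given as well.

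**Figure D1:**
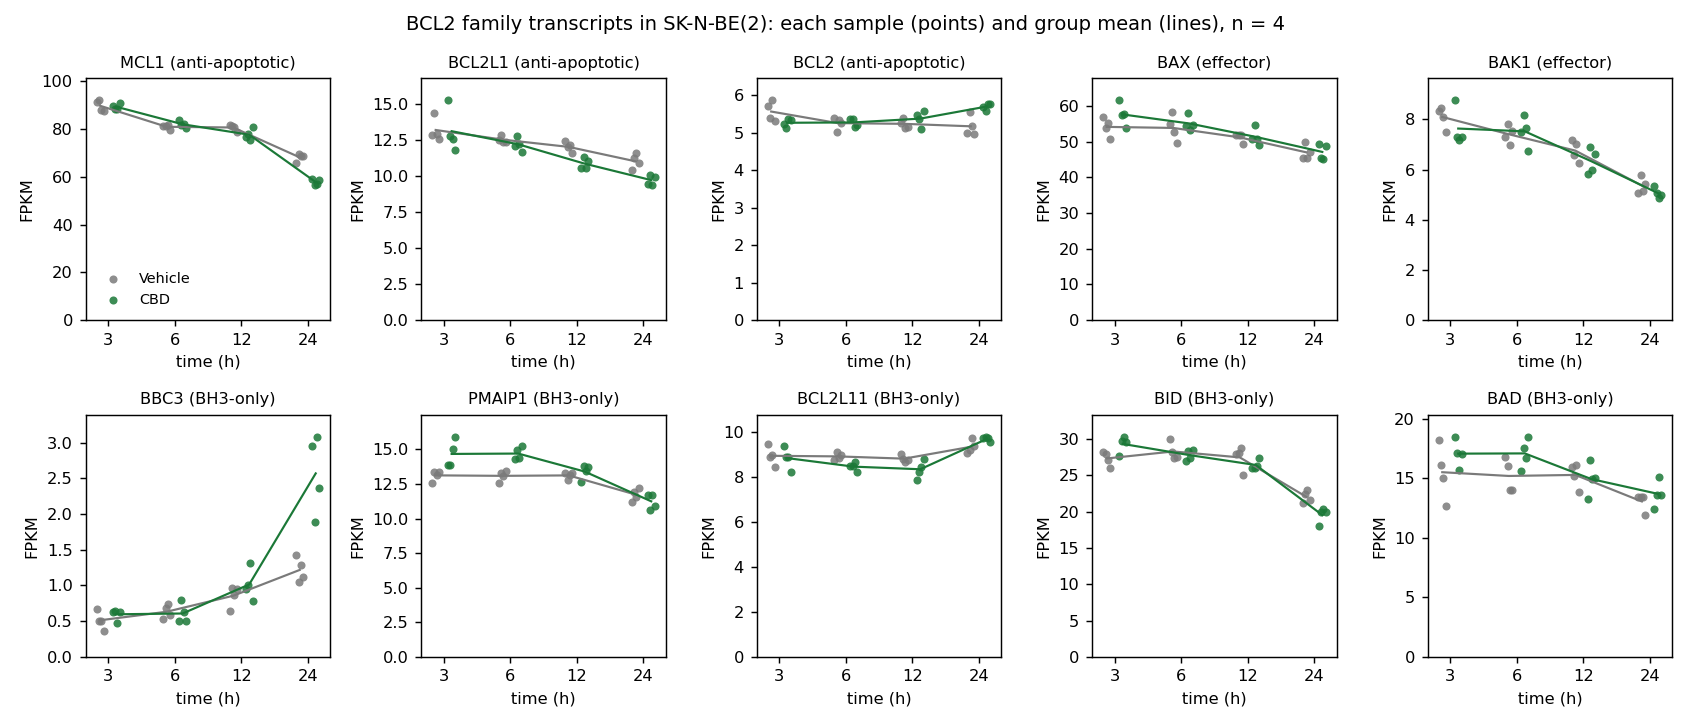
FPKM (vertical axes, from 0) of each member at 3, 6, 12 and 24 h (horizontal axes) in vehicle-treated (grey) and CBD-treated (green) cells; points are single samples and lines join the means of 4. The 4 CBD samples of BBC3 at 24 h, between 1.88 and 3.08 FPKM, lie above all other samples of that gene. The group means of MCL1, BCL2L1, BAX and BAK1 are lower at each later time in both treatments.

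For each comparison, limma was applied to log2(FPKM + 1), a scale that understates the change of low genes such as BBC3, and a member was called at a Benjamini-Hochberg adjusted p under 0.01 over all genes tested. The numbers of members called were 0 of 10 at 3 h (2.46% of all genes tested were called), 1 of 10 at 6 h (10.2%), 0 of 10 at 12 h (20.1%) and 5 of 10 at 24 h (42.1%). At an unadjusted p under 0.05 the counts at 3 h and 12 h were 3 and 3, against 23.1% and 39.6% of all genes. At 24 h, 2 members were called higher, against 20.8% of all genes, and 3 lower, against 21.3%. The members' share at 24 h was thus near that of all genes. Their median absolute log2 fold change at 24 h was 0.09, and that of all genes tested was 0.11. In a joint F-test over the 4 CBD effects, 6 of 10 members were called (BBC3, BCL2, BCL2L1, BID, MCL1 and PMAIP1), beside 47.2% of all genes. The place of BCL2L1 among them was marginal (adjusted p = 0.00983 from limma). With no filter on level, the F-test gave an adjusted p of 4.16e-05 for BBC3.

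**Figure D2:**
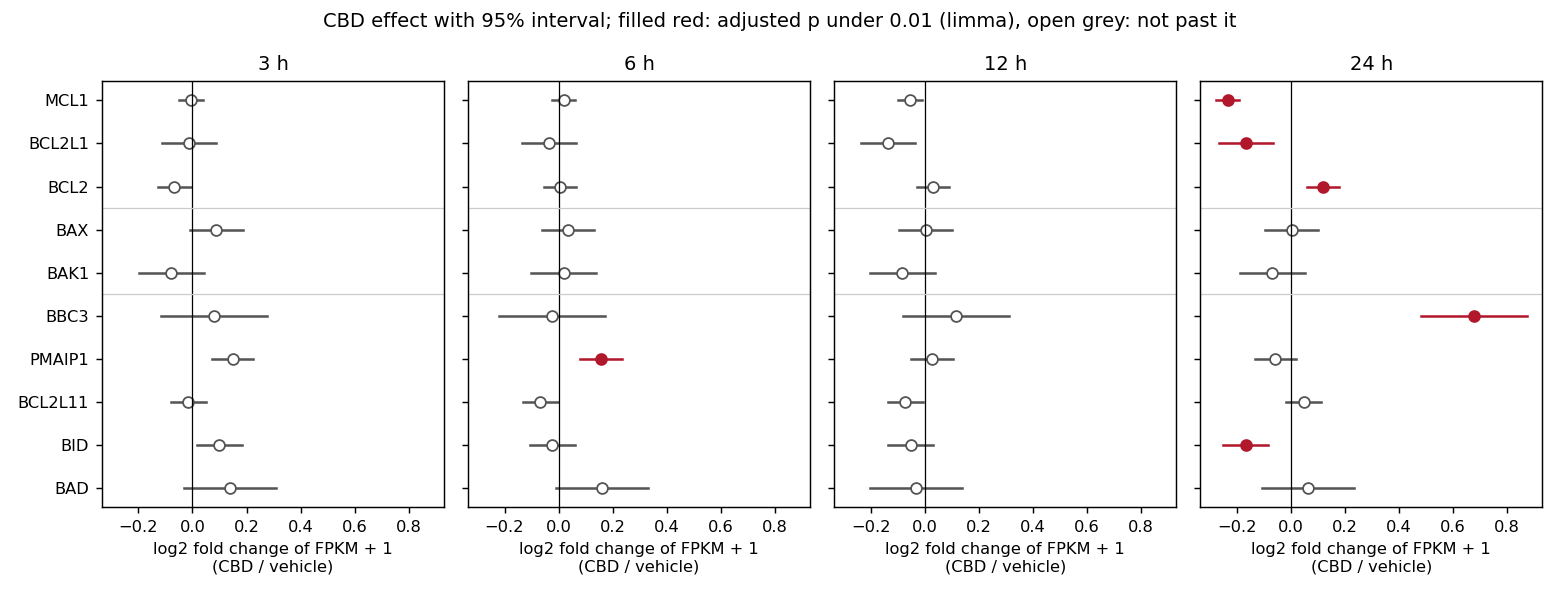
Log2 fold change of FPKM + 1, CBD against vehicle (horizontal axes), for each member at the 4 times, with 95% intervals from limma; filled red points passed an adjusted p of 0.01, open grey points did not. Guardians are at the top, effectors in the middle and BH3-only genes at the bottom, and the panel for 24 h holds 5 of the 6 red points.

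MCL1 encodes the short-lived guardian that PMAIP1 binds. In vehicle at 24 h its levels were 65.6, 69.4, 68.8 and 68.5 FPKM, and with CBD they were 58.9, 56.6, 57.1 and 58.5 FPKM. Every CBD sample was below every vehicle sample. The log2 fold change was -0.23 (SE 0.02, adjusted p = 8.21e-10 from limma), which was the smallest adjusted p among the members. At 3 and 6 h the differences were -0.01 and 0.02 on the log2 scale, with 95% intervals from -0.05 to 0.04 and from -0.03 to 0.06. The difference at 12 h was -0.05 (adjusted p = 0.0545 from limma), and CBD replicate 4 (80.7 FPKM) lay among the vehicle samples (78.6 to 81.8 FPKM) while the other CBD samples lay below them (75.3 to 77.8 FPKM). Without that sample the 12 h difference was -0.07 and passed (adjusted p = 0.00984 from limma). With other samples left out, the adjusted p from limma reached 0.194. The other alternatives gave 0.0515 to 0.252.

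BCL2L1, the guardian also known as BCL-XL, was lower at 24 h. Its levels there were 10.4, 11.2, 11.6 and 10.9 FPKM in vehicle and 9.49, 10.1, 9.38 and 9.92 FPKM with CBD. The groups did not overlap, and the log2 fold change was -0.17 (SE 0.05, adjusted p = 0.00611 from limma). This call was lost without any 1 of 5 of the 24 h samples, namely vehicle replicates 2, 3 or 4 (adjusted p = 0.0181, 0.0274 and 0.011 from limma) and CBD replicates 1 or 3 (0.0189 and 0.0224), and with relative depth as a term (0.0128). The groups at 12 h, 11.6 to 12.4 FPKM in vehicle and 10.5 to 11.3 FPKM with CBD, did not overlap either, and the difference of -0.14 on the log2 scale (adjusted p = 0.0383 from limma) passed when CBD 3 h replicate 1 was left out (adjusted p = 0.00559). That sample had the highest BCL2L1 of all 32, 15.3 FPKM against 11.8 to 12.8 FPKM in the rest of its group, and it enters the 12 h test through the pooled spread. With other samples left out, the adjusted p at 12 h from limma reached 0.101. The other alternatives gave 0.0143 to 0.133.

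BCL2, the founding member of the family, moved the other way. Its levels at 24 h were 4.99, 5.54, 5.18 and 4.97 FPKM in vehicle and 5.69, 5.58, 5.76 and 5.76 FPKM with CBD. The lowest CBD sample was just above the highest vehicle sample. The log2 fold change was 0.12 (SE 0.03, adjusted p = 0.00113 from limma), and with the 24 h samples fitted alone it no longer passed (adjusted p = 0.0142). Before 24 h its differences were -0.07, 0.00 and 0.03 on the log2 scale and were not called. Since BCL2 is scarce beside MCL1, the sum of the guardians followed MCL1, at 84.3 ± 2.34 FPKM in vehicle and 73.2 ± 1.08 FPKM with CBD at 24 h (SD, n = 4), with ranges of 81.0 to 86.2 and 72.2 to 74.2 FPKM.

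BAX, the effector that moves from the cytosol to the mitochondrion, had levels of 45.3, 50.0, 45.4 and 47.2 FPKM in vehicle and 49.2, 45.3, 45.0 and 48.8 FPKM with CBD at 24 h. The groups overlapped fully. The log2 difference was 0.00, with a 95% interval from -0.09 to 0.10. At 3 h it was 0.09 (interval -0.01 to 0.19, adjusted p = 0.269 from limma). BAK1, the effector that resides in the outer membrane, ranged from 5.08 to 5.78 FPKM in vehicle and from 4.86 to 5.36 FPKM with CBD at 24 h, a log2 difference of -0.07 with an interval from -0.19 to 0.05. Its differences at 3, 6 and 12 h were -0.08, 0.02 and -0.08 and were not called.

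BBC3 encodes PUMA, a BH3-only protein that binds all guardians and is induced by several stress pathways. At 24 h its levels were 1.43, 1.04, 1.28 and 1.12 FPKM in vehicle and 2.96, 1.88, 3.08 and 2.36 FPKM with CBD. The groups did not overlap, and the ratio of the means was 2.11. The log2 fold change of FPKM + 1 was 0.68 (SE 0.10, adjusted p = 1.34e-06 from limma), and the exact two-sided permutation test gave p = 0.0286, the smallest it can give with 4 against 4 samples. With no filter on level, limma gave an adjusted p of 1.93e-06 for BBC3. The size depends on the value added before the logarithm, and was 1.00 with 0.1 added and 0.28 with 5 added. At 3 and 6 h, the samples of both treatments lay between 0.364 and 0.802 FPKM. The log2 differences at 3, 6 and 12 h were 0.08, -0.02 and 0.11, with exact permutation p = 0.371, 0.8 and 0.343, and quantile normalization turned the sign of those at 6 h (0.06) and 12 h (-0.03).

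PMAIP1 encodes NOXA, the BH3-only partner of MCL1, and differed early. At 6 h its levels were 12.5, 13.3, 13.1 and 13.5 FPKM in vehicle and 14.3, 14.9, 14.3 and 15.2 FPKM with CBD. Every CBD sample was above every vehicle sample. The log2 fold change was 0.16 (SE 0.04, adjusted p = 0.00377 from limma). It no longer passed with the 6 h samples fitted alone (adjusted p = 0.0178), or without vehicle 6 h replicate 1 or 3 (0.0192 and 0.011) or CBD 6 h replicate 2 or 4 (0.0146 and 0.0134). At 3 h the levels were 12.6, 13.3, 13.2 and 13.4 FPKM in vehicle and 13.9, 13.9, 15.0 and 15.9 FPKM with CBD, again without overlap. That log2 difference of 0.15 did not pass (adjusted p = 0.0153 from limma). It passed when CBD 3 h replicate 1 was left out (0.0062) and with a replicate block (0.00642). With other samples left out, the adjusted p at 3 h reached 0.0573, and under the other alternatives it reached 0.182. The differences at 12 h and 24 h were 0.03 and -0.06, and the samples overlapped.

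BID links the death receptor arm to mitochondria once caspase 8 cleaves it. At 24 h its levels were 21.2, 22.5, 22.9 and 21.6 FPKM in vehicle and 18.0, 19.9, 20.3 and 19.9 FPKM with CBD. The groups did not overlap, and the log2 fold change was -0.17 (SE 0.04, adjusted p = 0.00104 from limma). With the 24 h samples fitted alone the call was lost (adjusted p = 0.0112). At 3 h the sign was the opposite, with 26.0 to 28.2 FPKM in vehicle, 27.6 to 30.3 FPKM with CBD and a difference of 0.10 that was not called (adjusted p = 0.138 from limma).

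BCL2L11, or BIM, an activator that also binds all guardians, was among the steadiest members, with group means between 8.33 and 9.67 FPKM. At 6 h its samples did not overlap, at 8.74, 9.07, 8.83 and 8.95 FPKM in vehicle and 8.46, 8.47, 8.64 and 8.21 FPKM with CBD, but the log2 difference of -0.07 was not called (adjusted p = 0.134 from limma). At 24 h the difference was 0.05 with a 95% interval from -0.02 to 0.11. BAD, whose product is held inactive by phosphorylation downstream of survival signals, was the most variable member after BBC3, with a mean coefficient of variation of 8.40% within groups. Its log2 differences were 0.14, 0.16, -0.03 and 0.06 at 3, 6, 12 and 24 h, and none was called. The 95% interval at 6 h, the widest excursion, ran from -0.01 to 0.33.

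Counts of members whose groups did not overlap can be set beside those of all genes. At 3 h this held for PMAIP1 only (1 of 10, against 9.88% of all genes tested), at 6 h for PMAIP1 and BCL2L11 (2 of 10, against 19.6%), at 12 h for BCL2L1 (1 of 10, against 30.3%) and at 24 h for the 5 members called there (against 51% of all genes).

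The change of the CBD effect between 3 and 24 h was tested within the same model. It was called for 5 of 10 members, against 27.2% of all genes. BBC3 and BCL2 gained, by 0.60 (SE 0.14, adjusted p = 9.43e-04 from limma) and 0.19 (SE 0.04, adjusted p = 7.27e-04) on the log2 scale. MCL1, BID and PMAIP1 lost, by -0.23 (SE 0.03, adjusted p = 1.23e-06 from limma), -0.27 (SE 0.06, adjusted p = 5.54e-04) and -0.21 (SE 0.05, adjusted p = 0.00287). With no filter on level the adjusted p for BBC3 was 0.00133. For BBC3 the call was lost with 0.1 added before the logarithm (difference 0.80, adjusted p = 0.012) and under quantile normalization (0.43, adjusted p = 0.127). For the effectors the differences were -0.08 (BAX) and 0.01 (BAK1), with intervals from -0.22 to 0.05 and from -0.16 to 0.18.

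Several members also drifted with time in vehicle alone. Between 3 and 6 h, MCL1 fell from 89.7 ± 2.2 to 80.9 ± 0.83 FPKM, a log2 difference of -0.15 (adjusted p = 4.59e-05 from limma), and it was the only member called (1 of 10, against 9.48% of all genes). Between 6 and 12 h no member was called (0 of 10, against 4.87% of all genes, and 0 at an unadjusted p under 0.05 by limma, against 24.7%). Between 12 and 24 h, 4 members fell, against 39.4% of all genes called in either direction: BID by 0.30, BAK1 by 0.29, MCL1 by 0.24 and PMAIP1 by 0.15 on the log2 scale (adjusted p = 7.37e-07, 2.01e-04, 1.33e-09 and 0.00166 from limma). The PMAIP1 call was lost without vehicle 24 h replicate 1 (adjusted p = 0.0104), and the BCL2L1 difference of -0.12 passed only without CBD 3 h replicate 1 (0.00975). BBC3 was 0.856 ± 0.14 FPKM at 12 h and 1.22 ± 0.17 FPKM at 24 h in vehicle, without overlap. Its log2 difference of 0.26 was not called (adjusted p = 0.0262 from limma, and 0.0349 with no filter on level). The lower MCL1 and BID with CBD at 24 h thus had the sign of the drift in vehicle between 12 and 24 h. Both comparisons use the same vehicle samples at 24 h.

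Ratios of a pro-apoptotic transcript to a guardian within each sample cancel a common scaling factor and are given as a description. The log2 ratio of BAX to BCL2 was higher with CBD at 3 h (3.45 ± 0.09 against 3.28 ± 0.05, SD, n = 4) and lower at 24 h (3.05 ± 0.06 against 3.18 ± 0.05), in both cases without overlap. At 24 h its denominator differed (BAX 0.00, BCL2 0.12). The log2 ratio of PMAIP1 to MCL1 exceeded that in vehicle by 0.17, 0.15, 0.09 and 0.17 in CBD-treated cells (3, 6, 12 and 24 h), without overlap except at 12 h. At 3 h its numerator differed (PMAIP1 0.15, MCL1 -0.01), and at 24 h its denominator did (PMAIP1 -0.06, MCL1 -0.23). The log2 ratio of BCL2L11 to BCL2L1 at 24 h was -0.01 ± 0.06 with CBD and -0.24 ± 0.04 in vehicle. That of BBC3 to BCL2L1 was -1.95 ± 0.38 and -3.19 ± 0.24, so BBC3 remained the scarcer transcript of the pair in every sample.

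**Figure D3:**
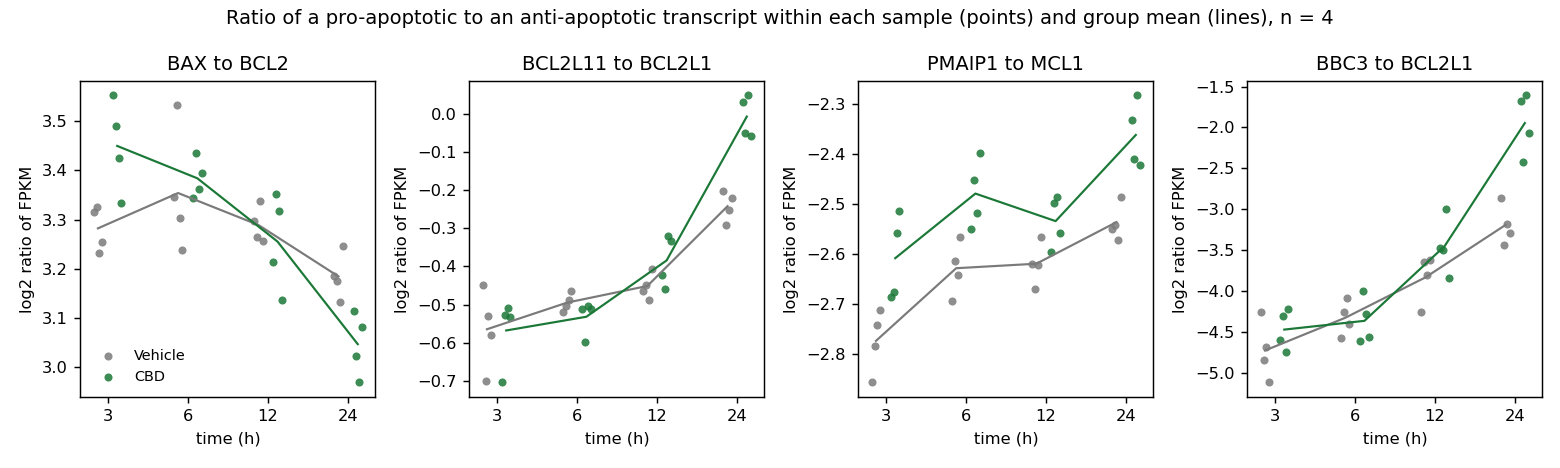
Log2 ratio of FPKM within each sample (vertical axes, which differ between panels and do not start at 0) by time in hours for 4 pairs of a pro-apoptotic and a guardian transcript; points are samples, lines join the means of 4, grey is vehicle and green is CBD. At 24 h the treatments do not overlap in any of the 4 panels, and the ratio of BAX to BCL2 is the only one lower with CBD. Each pair holds a member called on its own at 24 h, so the ratios are no separate evidence.

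Among pairs of members, the highest Pearson correlation of log2(FPKM + 1) over the 32 samples was that of MCL1 and BID (0.92) and the lowest that of MCL1 and BBC3 (-0.92). The samples share times and treatments, so these values mostly describe the common course of the groups. The genes most correlated with BBC3 over the 32 samples were H1F0, a linker histone gene, AKNA, a gene for a centrosomal protein, and ZFAS1, a small nucleolar RNA host gene, each with r = 0.96. At 24 h, AKNA was 1.86 ± 0.03 FPKM in vehicle and 5.10 ± 1.36 FPKM with CBD. The genes most like MCL1 were PPP2CA, a catalytic subunit gene of phosphatase 2A (r = 0.988), MGAT2, an N-glycan processing enzyme gene (0.987), and YWHAQ, which encodes a 14-3-3 protein (0.985). PPP2CA, MGAT2 and YWHAQ had log2 fold changes of -0.21, -0.26 and -0.24 at 24 h.

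The members were then set beside other genes of the pathway. Of 13 other family members listed, 7 were tested, and at 24 h CBD-treated cells had 3 higher and 2 lower (5 of 7, against 42.1% of all genes tested; median log2 fold change 0.05, against 0.00 over all genes tested). BNIP3 and BNIP3L, BH3-like mitophagy receptors that hypoxia induces, fell by 1.24 and 0.27 on the log2 scale (SE 0.06 and 0.05), BNIP3 from 103 ± 9.8 to 42.8 ± 2.17 FPKM. BOK, an effector relative, and BMF, a BH3-only gene, were higher by 0.18 and 0.15, and BMF had been lower at 12 h (-0.19, adjusted p = 0.00233 from limma). BOK averaged 1.03 FPKM over all samples and 1.65 ± 0.11 FPKM in CBD at 24 h. Without that group its mean would have been under the limit for testing. Its call, and the counts above that include it, thus carry the selection described for BBC3. HRK, another BH3-only gene, had a mean of 0.979 FPKM, just under the limit for testing. BCL2L2, a guardian, was not called (log2 difference -0.01).

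Downstream of the mitochondrion, 18 of 19 listed genes for the apoptosome, caspases, their inhibitors and released proteins were tested, and 2 were higher and 5 lower at 24 h (7 of 18, against 42.1% of all genes; median -0.08). APAF1, the scaffold that cytochrome c assembles with caspase 9, was lower at all 4 times (log2 fold changes of -0.19, -0.11, -0.15 and -0.28, adjusted p = 1.41e-05, 0.00159, 1.89e-05 and 1.68e-10 from limma). CASP2, an initiator caspase, fell by 0.36 and BIRC5, the mitotic regulator survivin, by 0.28, while DFFA, which restrains the apoptotic nuclease, rose by 0.32. In the death receptor arm, 6 of 10 genes had means under 1 FPKM and were not tested, among them FAS (0.0709 FPKM) and CASP8 (0.428 FPKM), whose product would cleave BID. Another of the 6, TNFRSF10B, was 0.825 ± 0.083 FPKM with CBD and 0.46 ± 0.051 FPKM in vehicle at 24 h (SD, n = 4). FAS differed the other way there, at 0.0538 ± 0.0149 FPKM with CBD and 0.0766 ± 0.0235 FPKM in vehicle. Of the 4 tested, RIPK1 and FADD fell by 0.34 and 0.15 and CFLAR, a caspase 8 decoy, rose by 0.11 (3 of 4 called, against 42.1% of all genes; median -0.04).

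Of 14 genes known to regulate members by transcription or protein turnover, 13 were tested, and 5 were higher and 2 lower at 24 h (7 of 13, against 42.1% of all genes; median 0.00). DDIT3 (CHOP) and TRIB3, genes of the integrated stress response, were higher by 1.29 (SE 0.11) and 0.90 (SE 0.11), with DDIT3 at 37.3 ± 6.75 FPKM against 14.5 ± 0.62 FPKM in vehicle. ATF4, which encodes the main factor of that response, was higher at all 4 times (0.24, 0.38, 0.35 and 0.41). MYCN and ATF3 were higher by 0.54 and 0.52 at 24 h. The 2 called lower at 24 h were E2F1 and FOXO3, by 0.23 and 0.09 (adjusted p = 8.52e-05 and 0.00381 from limma). JUN was lower at 6 and 12 h (-0.81 and -0.66, adjusted p = 2.75e-11 and 6.28e-10 from limma) and was not called at 24 h (-0.08). The ubiquitin ligase and deubiquitinase genes that act on MCL1 protein, HUWE1, FBXW7, MARCH5 and USP9X, were not called at any time, with log2 differences at 24 h between -0.01 and 0.03.

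**Figure D4:**
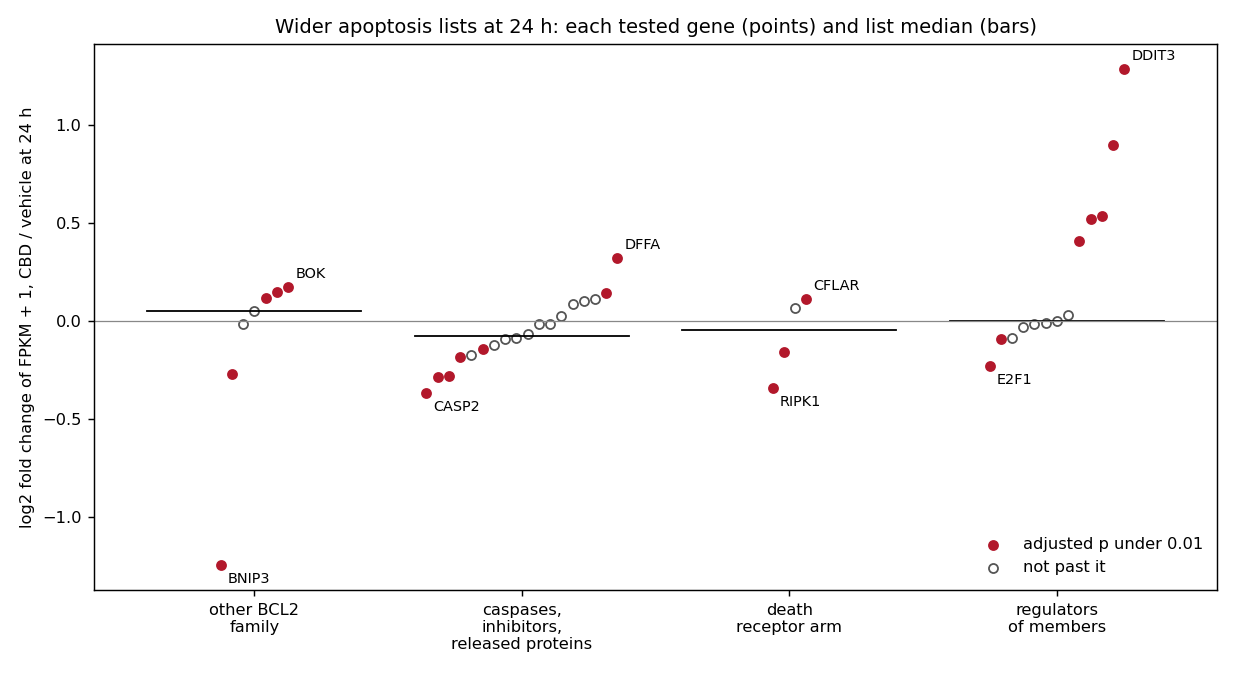
Log2 fold change of FPKM + 1 at 24 h, CBD against vehicle (vertical axis), for each tested gene of 4 pathway lists; red points passed an adjusted p of 0.01 in limma, open points did not, and black bars are list medians. BNIP3 is the lowest point (-1.24) and DDIT3 the highest (1.29), and every list holds genes called in both directions.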

How the data were processed

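The authors sequenced polyA RNA as single 50 bp reads on an Illumina HiSeq, trimmed them with Trimmomatic version 0.36 and used Tophat for alignment (genome build hg19) and Cufflinks for FPKM of every sample; these FPKM values were analysed as deposited. The labels name a Nugen library kit and the paper's methods a TruSEQ kit. The gene annotation used for FPKM is not given in the sources used here. A second table of the authors' own Cuffdiff comparisons supplied gene positions for a check only. Here, 1 was added to FPKM before the log2 transformation, and genes with a mean of at least 1 FPKM entered a model with 8 group means in limma version 3.58.1 (R version 4.3.3, eBayes with trend), with Benjamini-Hochberg adjustment within each comparison and a threshold of 0.01. The model was tested on simulated data. Exact permutation tests used scipy version 1.17.1 under Python version 3.11.15. Relative depth was read from low values of genes above 0 in 2 to 8 samples. Samples were grouped by their titles.

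The 10 members and the pathway lists were chosen with earlier results of these data known. All members were named, with the 3 genes most correlated with each of the 2 members of largest change among those called and, from each list, up to 4 called genes of largest change at 24 h. Other genes of the lists (HRK, BCL2L2, FAS, CASP8, TNFRSF10B, ATF4, E2F1, FOXO3, JUN, HUWE1, FBXW7, MARCH5 and USP9X, and AKNA's levels) were named after their values were seen. Alternatives were other added values, filters and scalings, each time point alone, a replicate block, relative depth as a term, other eBayes settings, a threshold of 0.05 and each sample left out. A filter on the vehicle samples alone was chosen after seeing the data. Promoter windows came from RefSeq for 9 members. A further one of the pathway lists is not reported here.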

Additional observations from a re-analysis of the deposited data

Results flagged for a closer look

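In 5 of 80 groups of 4 samples, a single sample stood apart from the other 3 by Dixon's ratio test at the 95% level, and chance marks about 1 in 20 groups. They were BAX in vehicle 12 h replicate 4 (49.2 FPKM, the others 51.7 to 51.9), BAK1 in CBD 3 h replicate 1 (8.75 FPKM, the others 7.19 to 7.29), BID in CBD 12 h replicate 4 (27.4 FPKM, the others 26.0 to 26.2), BAD in vehicle 24 h replicate 4 (11.9 FPKM, the others 13.4 to 13.5) and BBC3 in CBD 3 h replicate 3 (0.471 FPKM, the others 0.631 to 0.646). None of these groups enters a CBD effect that was called at that time for that gene. The BBC3 group does enter the called difference of its CBD effect between 24 h and 3 h. That call held with each sample left out (adjusted p up to 0.00309 from limma). The BBC3 and BID groups also enter the F-tests called for these genes.

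The CBD effect differed between 24 h and 3 h for 5 members by the test of the difference itself in limma. It was more positive at 24 h for BBC3 (0.60 on the log2 scale) and BCL2 (0.19), and more negative for BID (-0.27), MCL1 (-0.23) and PMAIP1 (-0.21). For PMAIP1 the effect at 3 h was 0.15 and that at 24 h was -0.06, and neither was called. For BID the effects at 3 and 24 h were 0.10 and -0.17, and only the later was called.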

How the results depend on the processing

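For MCL1 at 24 h, direction and call held in all alternatives run, with log2 fold changes from -0.26 to -0.20, and those of BBC3 held where it was fitted. At 3 h the count of members called was 1 at a threshold of 0.05 (7.27% of all genes called) and 1 with a replicate block (PMAIP1, adjusted p = 0.00642; 3.54% of all genes). At 6 h it was 0 with that time fitted alone (3.37% of all genes), at 12 h it was 1 at a threshold of 0.05 (30%), and at 24 h it was 3 with that time alone (40%). For vehicle at 24 h against 12 h it was 8 at a threshold of 0.05 (51.9%). With each sample left out, the counts ranged from 0 to 1 at 3 h, from 0 to 1 at 6 h and from 0 to 1 at 12 h. With the filter on vehicle samples, chosen after seeing the data, BBC3 was not tested and 4 of 9 members were called at 24 h (42.1% of all genes). In the F-test, BCL2 was lost under median-ratio scaling (adjusted p = 0.0134), quantile normalization (0.0342) and 4 left-out samples (vehicle 24 h replicates 1 and 4, CBD 24 h replicates 3 and 4; up to 0.0154), BID without vehicle 24 h replicate 3 (0.0101), and BCL2L1 under 4 alternatives (up to 0.0487) and without each of 24 of the 32 samples in turn (up to 0.0267).

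Same-numbered samples of both treatments correlated between -0.0757 and 0.0935 in their deviations from the group means. These values gave no sign of pairing by replicate number, but low correlations cannot exclude it. The replicate block changed no call other than PMAIP1 at 3 h.

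Uncalled differences near 0 changed sign. With relative depth as a term they became 0.0104 (BCL2L1, 3 h), -0.000342 (BCL2, 6 h), -0.00922 (BAX, 12 h) and -0.00372 (BAX, 24 h). Quantile normalization gave 0.0638 (BBC3, 6 h) and -0.0297 (BBC3, 12 h), and median-ratio scaling -0.0225 (BAX, 24 h). The causes were not tested. With each sample left out, the ranges at 3 h were -0.0823 to 0.0314 (BCL2L1), -0.0173 to 0.00608 (MCL1) and -0.0417 to 0.0164 (BCL2L11). At 6 h they were -0.0136 to 0.0158 (BCL2), -0.00386 to 0.0716 (BAX), -0.0189 to 0.0627 (BAK1), -0.0389 to 0.00336 (BID) and -0.0813 to 0.00855 (BBC3). At 12 h they were -0.0272 to 0.0247 (BAX) and -0.08 to 0.0203 (BAD), and at 24 h -0.0181 to 0.0329 (BAX).

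FPKM keep no read counts, so counting error cannot be given, and that of BBC3, at about 1 FPKM, is the least known. Gene-level FPKM do not separate isoforms, and RNA levels say nothing of protein.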
